A study of Mus musculus with 24 samples.

Results

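The effect of an internal tandem duplication of Flt3 (Flt3-ITD) was measured in granulocyte-macrophage progenitors (GMP) whose Ern1 gene was floxed for deletion in blood cells. The comparison set 3 libraries labelled IRE1_KO_ITD against 3 labelled IRE1_KO, which is 6 of the 24 libraries of the series. Of 23991 gene symbols, 10818 (45.1%) reached at least 1 FPKM (fragments per kilobase of a transcript, relative to all mapped fragments of the library) in at least 3 of these 6 libraries and were tested. Nearest to the limit were Tnfaip6, which passed with 3 libraries at 1.0007 FPKM or more, and Habp4, whose value at that rank was 0.99986 FPKM. Of the genes tested, 9746 reached 1 FPKM in all 6 libraries, while 142 passed only through the IRE1_KO_ITD libraries and 92 only through the IRE1_KO libraries.

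All mice were on the C57BL/6 strain, and GMP were sorted from bone marrow. IRE1_KO_ITD animals carried floxed Ern1 alleles, Vav-Cre and Flt3-ITD. IRE1_KO animals carried the same floxed Ern1 alleles and Vav-Cre but no Flt3-ITD, so Ern1 was targeted in both groups. A pair of further groups served for the same comparison with Ern1 intact: ITD animals with Flt3-ITD alone and wild-type (WT) animals with neither change, 3 GMP libraries each. The same 4 genotypes were also sorted as LSK cells, a gate without lineage markers and with Sca1 and cKit that holds stem and multipotent progenitor cells. Vav-Cre acts throughout blood cells and not only in progenitors. The zygosity of Flt3-ITD, the ages of the mice, the floxed exons and whether each library came from a separate animal are not stated in the labels, so the spread between libraries may be partly technical.

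Flt3 is the receptor of a cytokine that acts on early progenitors. The internal tandem duplication lengthens its juxtamembrane region, keeps the kinase active without ligand and activates STAT5, a transcription factor whose known targets include the feedback inhibitors Socs2 and Cish. Ern1 encodes IRE1α, a sensor of the endoplasmic reticulum (ER) that splices the mRNA of Xbp1 and so produces the active transcription factor of one arm of the unfolded protein response. GMP give rise to neutrophils and monocytes and express the genes of the primary granules.

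The 6 libraries resembled each other closely. FPKM summed to between 567255 and 640688 per library, 10543 to 10775 genes reached 1 FPKM, and correlations between libraries of 1 group lay between 0.9757 and 0.9833. No read totals were used here, and ratios of low FPKM values put the depth of each library at 0.856 to 1.07 times that of IRE1_KO replicate 1. By Xist and Y-linked genes, IRE1_KO_ITD replicates 1 and 3 were male and replicate 2 female, against a male IRE1_KO replicate 1 and female replicates 2 and 3. All 3 ITD libraries were female, and WT replicate 1 was female with 2 male libraries beside it. Of 10 listed GMP markers, 1 rose (Cd34) and 3 fell (Elane, Prtn3 and Cst7), and their summed level was 19484 to 22541 FPKM in IRE1_KO_ITD and 26026 to 29946 FPKM in IRE1_KO libraries. Markers of GMP were high in all 6 libraries, with the granule gene Mpo at 8223 to 8884 FPKM in IRE1_KO_ITD and 9528 to 10146 FPKM in IRE1_KO libraries.

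Ern1 was at 26.6, 28.5 and 33.2 FPKM in IRE1_KO_ITD GMP, against 19.3, 24.5 and 17.9 FPKM in IRE1_KO GMP, and at 10.4, 9.20 and 7.58 FPKM in WT GMP. The floxed libraries were thus all above WT, and FPKM summed over a whole gene cannot show whether part of it was removed, so this value did not check the deletion. The log2 fold change of Ern1 between the 2 floxed groups was 0.50 ± 0.16 and did not pass (limma adjusted p = 0.0597), but passed without IRE1_KO replicate 2 (limma adjusted p = 0.0361). Flt3 was at 20.2, 25.5 and 28.5 FPKM in IRE1_KO_ITD and 4.19, 13 and 10.1 FPKM in IRE1_KO libraries, without overlap, but at a log2 fold change of 1.45 ± 0.44 it also missed the threshold (limma adjusted p = 0.0545). Flt3 passed in the fits of 6 and of 24 libraries and without IRE1_KO replicate 2 (limma adjusted p = 0.0475, 0.00537 and 0.046). Kit, the receptor of stem cell factor and part of the usual GMP gate, was level at 37.3 to 46.9 FPKM in IRE1_KO_ITD and 38.6 to 44.7 FPKM in IRE1_KO libraries (log2 fold change 0.00 ± 0.14, limma adjusted p = 0.992).

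Across all genes, 1448 of 10818 (13.4%) differed between IRE1_KO_ITD and IRE1_KO GMP at an adjusted p under 0.05, from limma with Benjamini-Hochberg adjustment on log2(FPKM + 1). Of these, 962 were higher in IRE1_KO_ITD (8.89% of all genes tested) and 486 were lower (4.49%). The calls include 114 of the 142 genes that passed the filter only through the IRE1_KO_ITD libraries. They also include 72 of the 92 that passed only through the IRE1_KO libraries. For these genes the filter already favoured a difference, so their calls are not independent support. The excess of higher calls depended on the scaling: a median-ratio size factor gave 718 higher and 729 lower, and quantile normalization gave 764 higher and 629 lower. Most changes were small, since 1037 of the 1448 genes moved by less than 1 log2 unit, with 238 higher and 173 lower genes beyond it. The median log2 fold change of all genes tested was 0.08. The count fell to 728 without IRE1_KO_ITD replicate 2, 765 without IRE1_KO replicate 3, 789 without IRE1_KO replicate 1 and 871 without IRE1_KO_ITD replicate 1. Here and below, ± after a log2 fold change is the standard error of the limma fit with n = 3 libraries in each group, and the log2(FPKM + 1) scale understates the change of genes at low level. In bulk samples fewer cells of a type and less RNA per cell cannot be told apart.

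**Figure D1:**
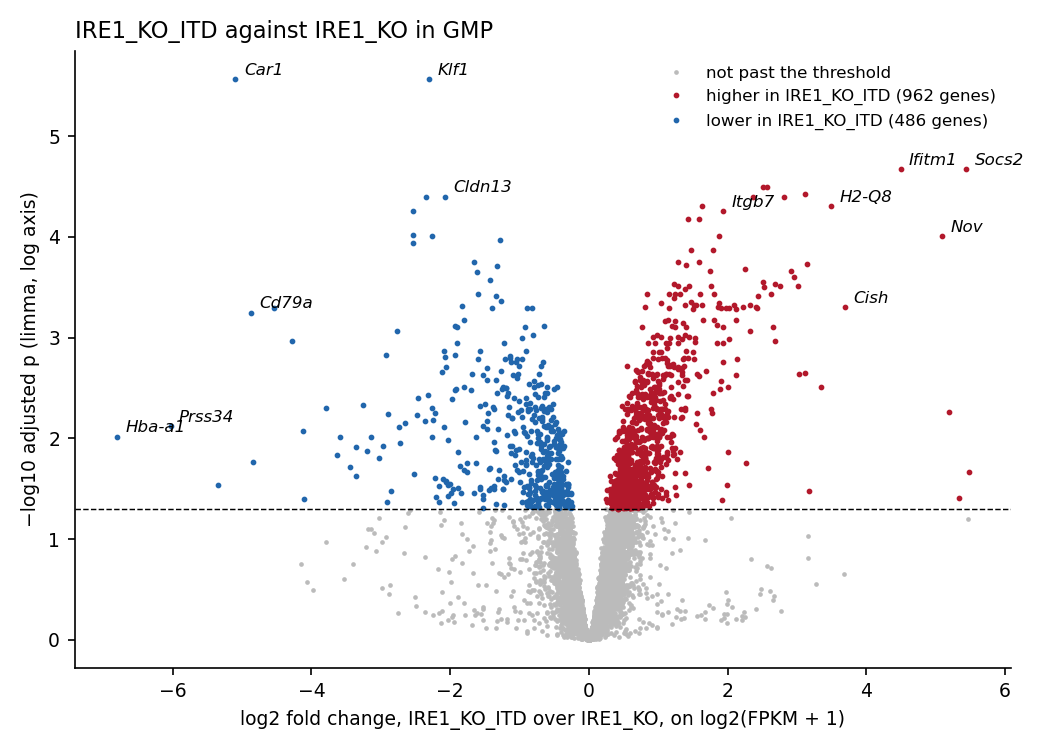
Log2 fold change of IRE1_KO_ITD over IRE1_KO in GMP on log2(FPKM + 1) (x axis) against −log10 of the limma adjusted p (y axis), 1 point per gene tested; the dashed line is the threshold of 0.05. Socs2, Nov and Ifitm1 lie furthest right among the named genes, Hba-a1 and Prss34 furthest left, and Car1 and Klf1 have the smallest adjusted p.

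The genes that rose most included the STAT5 targets Socs2 and Cish, the matricellular gene Nov, the interferon-inducible Ifitm1 and the MHC class I gene H2-Q8. Socs2, a STAT5-induced inhibitor of cytokine receptors on chromosome 10 (95383903 to 95417321, RefSeq on GRCm38.p6), was at 61.2, 83.9 and 79.0 FPKM in IRE1_KO_ITD, against 0.278, 1.24 and 0.786 FPKM in IRE1_KO libraries. Its mean level was 97.2 times as high with Flt3-ITD, and its log2 fold change was 5.44 ± 0.33 (limma adjusted p = 2.14e-05). Nov (Ccn3 in RefSeq), which encodes a secreted matricellular protein, was at 20.0, 79.9 and 23.4 FPKM in IRE1_KO_ITD and at 0.0146, 0.0139 and 0 FPKM in IRE1_KO libraries. The gene was thus near 0 in every library without Flt3-ITD, and IRE1_KO_ITD replicate 2 stood above the other two (log2 fold change 5.10 ± 0.44, limma adjusted p = 9.9e-05).

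Ifitm1, which encodes a small membrane protein, was at 2571, 3163 and 2732 FPKM in IRE1_KO_ITD and at 169.0, 101.3 and 110.3 FPKM in IRE1_KO libraries. Its mean was 22.2 times as high and its log2 fold change 4.50 ± 0.28 (limma adjusted p = 2.14e-05). Cish, the other STAT5-induced inhibitor, was at 23.7, 42.6 and 33.4 FPKM in IRE1_KO_ITD and 1.53, 1.63 and 1.60 FPKM in IRE1_KO libraries, a log2 fold change of 3.69 ± 0.42 (limma adjusted p = 0.000495). H2-Q8, a non-classical MHC class I gene, was at 49.3, 41.8 and 49.4 FPKM in IRE1_KO_ITD and 3.21, 2.44 and 4.31 FPKM in IRE1_KO libraries (log2 fold change 3.49 ± 0.27, limma adjusted p = 4.97e-05). The H2-Q genes are close copies of each other, so how reads were split between them is uncertain.

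The next genes by fold change were low without Flt3-ITD. Igfbp7, a secreted binding protein of insulin-like growth factors, was at 7.74 to 19.5 FPKM in IRE1_KO_ITD and at most 0.707 FPKM in IRE1_KO libraries (log2 fold change 3.35). Cp, the copper carrier ceruloplasmin, was at 6.11 to 14.9 FPKM in IRE1_KO_ITD and at most 0.159 FPKM in IRE1_KO libraries (3.14). Clnk, an adaptor of immunoreceptor signalling, was at 9.29 to 10.7 FPKM in IRE1_KO_ITD and at most 0.400 FPKM in IRE1_KO libraries (3.11). Myl10, a myosin light chain, was at 20.2 to 26.7 FPKM in IRE1_KO_ITD and 0.312 to 4.46 FPKM in IRE1_KO libraries (3.12). Tox, a nuclear factor of lymphocyte development, was at 4.60 to 13 FPKM in IRE1_KO_ITD and at most 0.125 FPKM in IRE1_KO libraries (3.04). All 5 passed, with limma adjusted p between 3.74e-05 and 0.00312.

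**Figure D2:**
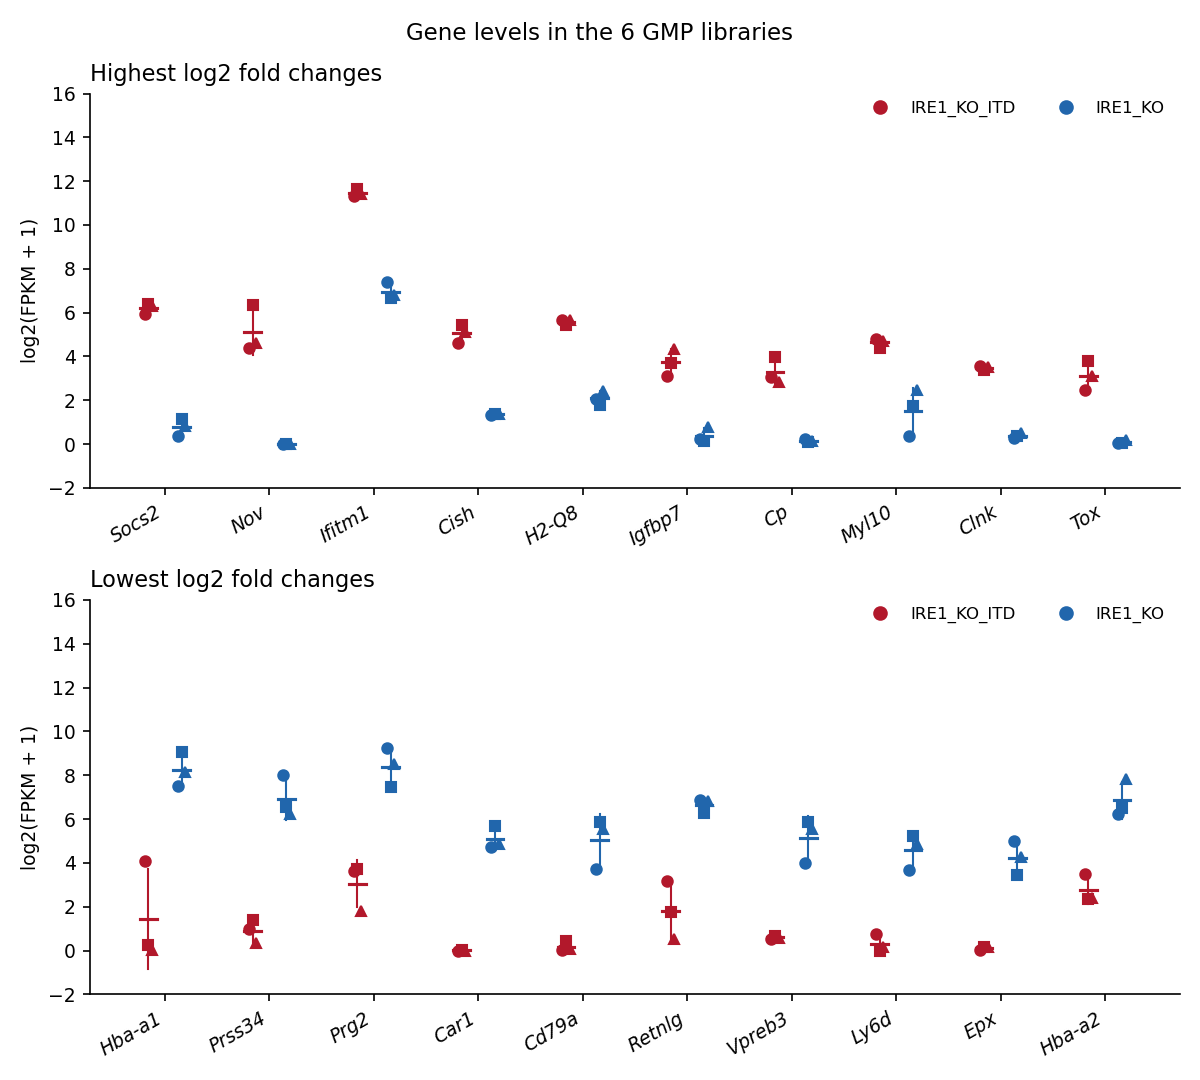
Levels as log2(FPKM + 1) of the 10 genes with the highest (upper panel) and the 10 with the lowest (lower panel) log2 fold change by the naming rule, in IRE1_KO_ITD (red, left) and IRE1_KO (blue, right) GMP; circle, square and triangle are replicates 1, 2 and 3, the bar is the mean and the line the SD (n = 3 each). The groups do not overlap for any of the 20 genes, and Hba-a1 has the widest spread within IRE1_KO_ITD, where replicate 1 is at 15.9 FPKM and the others are at 0.178 and 0.00721 FPKM.

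Among 23 tested genes of a JAK-STAT5 and cytokine feedback list, 5 rose and 2 fell, with a median log2 fold change of 0.40 against 0.08 for all genes. Beside Socs2 and Cish, the survival gene Bcl2 rose to 22.4, 36.6 and 38.4 FPKM in IRE1_KO_ITD, against 14.0, 17.7 and 15.0 FPKM in IRE1_KO libraries (log2 fold change 0.98 ± 0.23, limma adjusted p = 0.0213). The kinase Pim2 and the cyclin Ccnd2 rose by 0.92 ± 0.18 and 1.01 ± 0.21 (limma adjusted p = 0.00877 and 0.00966). The other D-type cyclins went the other way: Ccnd3 was at 92.4, 100.3 and 101.4 FPKM in IRE1_KO_ITD and 184.8, 178.6 and 215.1 FPKM in IRE1_KO libraries (log2 fold change -0.97 ± 0.13, limma adjusted p = 0.00102), and Ccnd1 had a log2 fold change of -1.03 ± 0.16 (limma adjusted p = 0.00253). Socs1, Socs3, Pim1, Pim3, Myc, Osm and Bcl2l1 did not pass, and neither did Stat5a at 18.7 to 22.9 FPKM in IRE1_KO_ITD and 17.2 to 21.9 FPKM in IRE1_KO libraries. None of 19 tested feedback and early response genes of the MAPK pathway passed as reported; their median of -0.28 was -0.73 without IRE1_KO replicate 1, where 1 fell, and turned to 0.15 without IRE1_KO_ITD replicate 3 and 0.07 without IRE1_KO replicate 3. With quantile normalization 1 of the 19 fell.

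Of 20 tested receptor genes, 4 fell and 1 rose. Csf2ra, a subunit of the GM-CSF receptor, was at 40.8, 35.0 and 34.1 FPKM in IRE1_KO_ITD and 90.5, 68.9 and 78.4 FPKM in IRE1_KO libraries (log2 fold change -1.09 ± 0.17, limma adjusted p = 0.00237). Csf2rb, the β subunit of that receptor, lay the other way, at 33.1, 35.4 and 32.9 FPKM in IRE1_KO_ITD and 26.9, 25.8 and 25.8 FPKM in IRE1_KO libraries. Its log2 fold change of 0.36 ± 0.12 did not pass (limma adjusted p = 0.0721) but did in the fits of 6 and of 24 libraries (0.0451 and 0.0232). Csf3r, the G-CSF receptor, had a log2 fold change of -0.96 ± 0.23, Epor, the erythropoietin receptor, of -1.27 ± 0.14, and Ifngr1 of -0.49 ± 0.12 (limma adjusted p = 0.0209, 0.000436 and 0.0239). Il1r1, the interleukin 1 receptor, rose to 4.24, 6.81 and 5.08 FPKM in IRE1_KO_ITD, against 0.522, 1.47 and 1.43 FPKM in IRE1_KO libraries (log2 fold change 1.59 ± 0.24, limma adjusted p = 0.0024). The 4 receptors that fell became 2 without IRE1_KO_ITD replicate 2 or 3 or IRE1_KO replicate 1. Csf1r, the M-CSF receptor, was at 42.1 to 56.9 FPKM in IRE1_KO_ITD and 42.8 to 59.8 FPKM in IRE1_KO libraries and did not pass.

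Several genes of immature cells rose. Of 22 tested stem cell and multipotent progenitor genes, 9 rose and 1 fell (median 0.59), against 8.89% higher and 4.49% lower over all genes. Without a filter 7 of 43 rose and the median was 0.1. With IRE1_KO replicate 1 or 3 left out, 6 rose. Mycn, a Myc family factor, was at 5.38, 4.93 and 4.92 FPKM in IRE1_KO_ITD and 0.132, 0.792 and 0.648 FPKM in IRE1_KO libraries (log2 fold change 2.02 ± 0.26, limma adjusted p = 0.00103). Like Thy1 below, it passed the filter only through the IRE1_KO_ITD libraries, so its call is not independent support. The homeobox genes Hoxa7 and Hoxa9, both active in progenitors and in leukaemia, rose by 1.38 ± 0.22 and 1.18 ± 0.19 (limma adjusted p = 0.00263 and 0.00307), while Gata2 had a log2 fold change of -1.14 ± 0.16 (limma adjusted p = 0.00152). Cd34, which is part of the usual GMP gate, was at 199.6, 195.2 and 175.7 FPKM in IRE1_KO_ITD and 96.0, 147.1 and 113.6 FPKM in IRE1_KO libraries (log2 fold change 0.69). The defining stem cell genes stayed low in both groups, with Hlf at 0.471 to 1.04 FPKM in IRE1_KO_ITD and 0.656 to 0.926 FPKM in IRE1_KO libraries, and only 1 of 5 listed stem cell markers (Ly6a) passed the filter. Of 6 tested T cell and NK cell genes, 2 rose and 1 fell. Thy1 and Lck, known from T cells, rose by 2.45 ± 0.27 and 1.12 ± 0.25 (limma adjusted p = 0.000383 and 0.0138), with Thy1 at 4.49 to 5.63 FPKM in IRE1_KO_ITD and at most 0.144 FPKM in IRE1_KO libraries, whereas the T cell genes Cd3e and Cd3g were listed at 0 in all 3 IRE1_KO_ITD libraries. Cd3e and Cd3g were near 0 in IRE1_KO libraries as well, at most 0.0256 and 0.0899 FPKM, and were not tested.

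Calls on the monocyte list were mostly higher. Of 36 tested monocyte, macrophage and dendritic genes, 12 rose and 1 fell (median 0.49). Emr1, which encodes the macrophage antigen F4/80, was at 11.9, 12.2 and 8.57 FPKM in IRE1_KO_ITD and 3.16, 3.60 and 3.62 FPKM in IRE1_KO libraries (log2 fold change 1.40 ± 0.13, limma adjusted p = 0.00019). The chemokine Ccl9 was at 123.3, 107.3 and 89.7 FPKM in IRE1_KO_ITD and 46.4, 43.6 and 46.5 FPKM in IRE1_KO libraries (1.20 ± 0.15, limma adjusted p = 0.000771), and Irf8, a factor that directs progenitors to the monocyte lineage, rose by 0.75 ± 0.13 (limma adjusted p = 0.00382). The separate list of 6 monocyte and dendritic markers did not follow: none of the 4 tested (Csf1r, Ly6c2, F13a1 and Ccr2) passed, and the summed level of the 6 was 2546 to 5107 FPKM in IRE1_KO_ITD and 3075 to 3671 FPKM in IRE1_KO libraries, which overlap. The 12 that rose became 6 without IRE1_KO_ITD replicate 1 or 2 or IRE1_KO replicate 3. The single gene that fell was Ly6d, which the B cell list also holds. Of 16 tested lymphoid priming genes, 2 rose and 1 fell (median 0.09).

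Of 27 tested neutrophil primary granule genes, 6 fell and none rose (median -0.35). Elane, neutrophil elastase, was at 6994, 5600 and 5530 FPKM in IRE1_KO_ITD and 10651, 8786 and 9108 FPKM in IRE1_KO libraries (log2 fold change -0.66 ± 0.15, limma adjusted p = 0.0162). The sign for Elane depended on the scaling: quantile normalization gave 0.45 with an adjusted p of 0.383. Prtn3, proteinase 3, was at 2476 to 2668 FPKM in IRE1_KO_ITD and 3614 to 4722 FPKM in IRE1_KO libraries (-0.69 ± 0.11, limma adjusted p = 0.0029). Cebpe, the factor that drives terminal granulocyte maturation, was at 25.6, 13.7 and 16.9 FPKM in IRE1_KO_ITD and 94.5, 48.7 and 104.3 FPKM in IRE1_KO libraries (-2.05 ± 0.52, limma adjusted p = 0.0267). The 6 genes that fell became 1 without IRE1_KO_ITD replicate 2 or IRE1_KO replicate 1, and 2 without IRE1_KO_ITD replicate 3 or IRE1_KO replicate 3.

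Genes of mature neutrophils were lower still but varied more between libraries. Of 26 tested late neutrophil genes, 9 fell and none rose, with a median log2 fold change of -2.11. Retnlg, a resistin-like secreted protein, was at 7.94, 2.40 and 0.433 FPKM in IRE1_KO_ITD and 116.3, 75.8 and 111.4 FPKM in IRE1_KO libraries (-4.84 ± 1.10, limma adjusted p = 0.017). Hdc, which makes histamine, was at 45.3, 25.9 and 23.8 FPKM in IRE1_KO_ITD and 143.3, 115.9 and 110.0 FPKM in IRE1_KO libraries (-1.97 ± 0.34, limma adjusted p = 0.00404). The cathelicidin gene Camp did not pass: it was at 1412, 439.3 and 163.9 FPKM in IRE1_KO_ITD and 4191, 1631 and 7398 FPKM in IRE1_KO libraries. The 5 listed late neutrophil markers summed to 309.5 to 2406 FPKM in IRE1_KO_ITD and 3175 to 15844 FPKM in IRE1_KO libraries. Only 1 of the 5, Retnlg, passed, and the largest of them in each library was Camp, which did not. The 9 genes that fell became 5 without IRE1_KO replicate 1 or 3, and 18 in the fit of all 24 libraries.

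Most of the red cell genes tested fell. Of 26 tested erythroid genes, 18 fell and 1, the factor Nfe2, rose (median -1.59). Car1, carbonic anhydrase 1, was at 0, 0.0301 and 0 FPKM in IRE1_KO_ITD and 25.7, 50.9 and 28.6 FPKM in IRE1_KO libraries (-5.09 ± 0.24, limma adjusted p = 2.7e-06). Klf1, the main transcription factor of red cell genes, was at 0.274, 0.0666 and 0.198 FPKM in IRE1_KO_ITD and 4.51, 5.40 and 4.54 FPKM in IRE1_KO libraries (-2.30 ± 0.11, limma adjusted p = 2.7e-06). The α-globin genes Hba-a1 and Hba-a2 had log2 fold changes of -6.80 ± 1.37 and -4.10 ± 1.16 (limma adjusted p = 0.00962 and 0.0405); they are near-identical copies whose reads may have been split between them.

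Megakaryocyte genes were mixed, with 3 of 11 tested lower (Pf4, Itga2b and Gata1, also listed as an erythroid marker) and 1 higher (Itgb3). Itga2b lost its call under 9 of 15 alternatives and Itgb3 under 5. Pf4, platelet factor 4, was at 2.76, 2.52 and 2.05 FPKM in IRE1_KO_ITD and 15.1, 58.2 and 111.9 FPKM in IRE1_KO libraries (-3.79 ± 0.67, limma adjusted p = 0.00496). Of 17 tested basophil, mast cell and eosinophil genes, 10 fell and 2 rose (median -1.90). The basophil protease Prss34 was at 0.960, 1.63 and 0.261 FPKM in IRE1_KO_ITD and 258.9, 91.9 and 74.2 FPKM in IRE1_KO libraries (-6.03 ± 1.16, limma adjusted p = 0.00757), and the eosinophil peroxidase Epx was at most 0.125 FPKM in IRE1_KO_ITD and at least 9.89 FPKM in IRE1_KO libraries (-4.12 ± 0.81, limma adjusted p = 0.00855). The basophil granzyme Mcpt8 did not follow, at 124.3 to 188.7 FPKM in IRE1_KO_ITD and 81.8 to 229.1 FPKM in IRE1_KO libraries. Itgb7, an integrin subunit of mast cell progenitors and lymphocytes, rose to 35.3, 41.1 and 35.0 FPKM in IRE1_KO_ITD, against 7.93, 10.7 and 8.38 FPKM in IRE1_KO libraries (1.94 ± 0.15, limma adjusted p = 5.56e-05).

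The B cell genes showed the highest share of calls among the lists, with 17 of 18 tested genes lower (median -2.74). Cd79a, a chain of the B cell receptor, was at 0.0271, 0.341 and 0.0522 FPKM in IRE1_KO_ITD and 12.2, 58.0 and 46.2 FPKM in IRE1_KO libraries (-4.88 ± 0.58, limma adjusted p = 0.000566). Vpreb3, a part of the pre-B cell receptor complex, was at 0.456 to 0.590 FPKM in IRE1_KO_ITD and 14.9 to 56.9 FPKM in IRE1_KO libraries (-4.53 ± 0.53, limma adjusted p = 0.000505). Pax5, which defines the B lineage, was listed at 0 in all 3 IRE1_KO_ITD libraries. It was low in IRE1_KO libraries too, at 0.251, 0.628 and 0.624 FPKM, and was not tested. The 5 listed markers of each lineage summed to 0.286 to 0.718 FPKM (erythroid) and 0.521 to 0.944 FPKM (B cell) in IRE1_KO_ITD, against 40.4 to 71.5 FPKM (erythroid) and 31.0 to 139.8 FPKM (B cell) in IRE1_KO libraries. The share of such cells in either sorted sample was not tested. Because the tested genes of these lists passed the filter through the IRE1_KO libraries, the counts describe the lists and are not independent support.

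**Figure D3:**
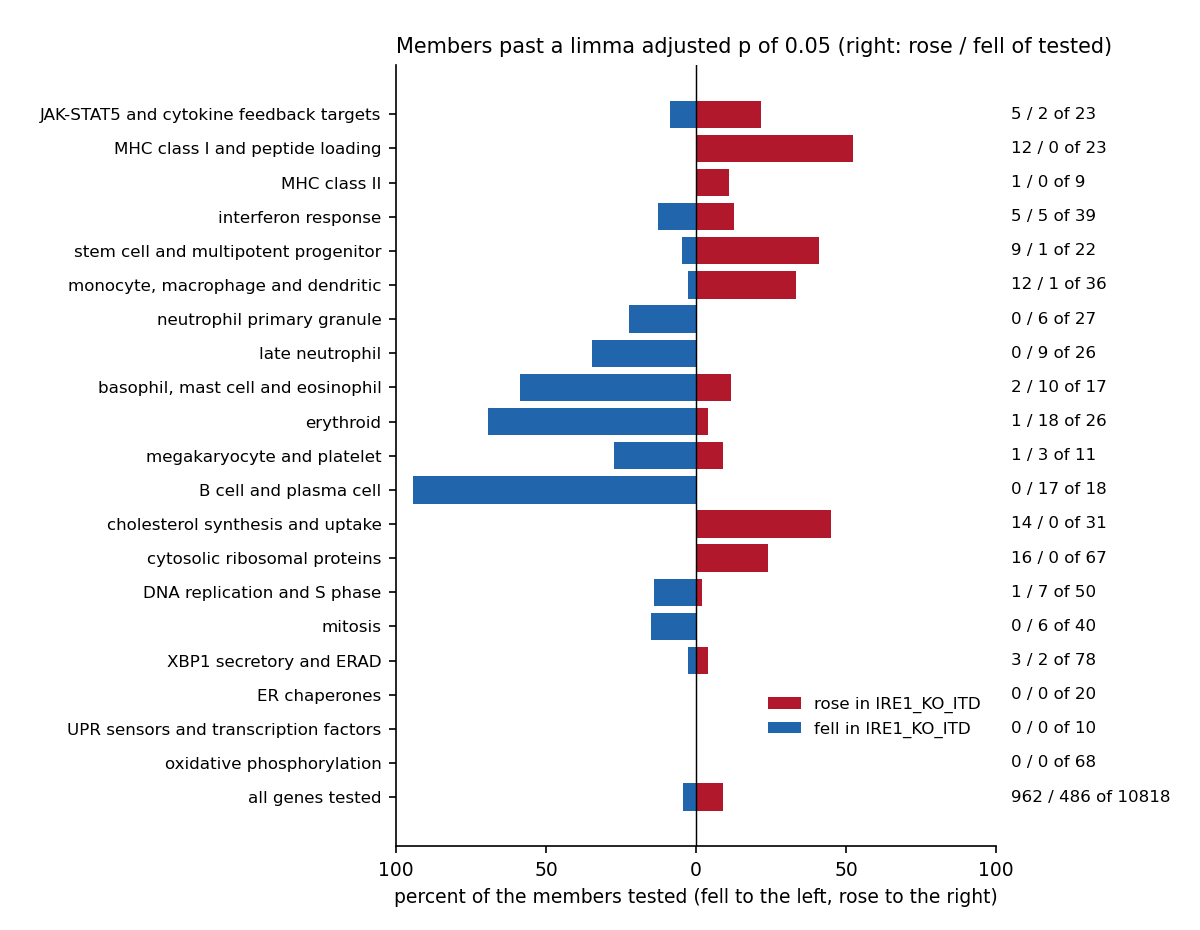
Share of the tested members of each gene list that rose (red, to the right) or fell (blue, to the left) in IRE1_KO_ITD relative to IRE1_KO GMP at a limma adjusted p under 0.05, with the counts printed at the right; the last bar is all genes tested. B cell, erythroid and basophil lists lie far to the left and the MHC class I and cholesterol lists to the right, while no member of the ER chaperone and unfolded protein response lists passed in this fit.

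Many class I antigen presentation genes rose. Of 23 tested MHC class I and peptide loading genes, 12 rose and none fell (median 0.47). H2-D1, a classical class I chain, was at 746.9, 720.3 and 637.5 FPKM in IRE1_KO_ITD and 416.4, 436.3 and 462.0 FPKM in IRE1_KO libraries (0.68 ± 0.11, limma adjusted p = 0.00331). H2-M3, which presents formylated peptides, and H2-Q7 rose by 1.10 ± 0.15 and 1.94 ± 0.26 (limma adjusted p = 0.0016 and 0.00112). The transporter Tap1, the proteasome subunits Psmb8 and Psmb9 and the class I transactivator Nlrc5 rose too, by 0.55, 0.56, 0.47 and 1.01.

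Interferon genes showed calls in both directions. Of 39 tested interferon response genes, 5 rose and 5 fell (median -0.49). The guanylate-binding proteins Gbp7, Gbp3 and Gbp5 rose, by 1.85, 0.88 and 1.06, and Gbp7 was at 32.5, 44.0 and 37.2 FPKM in IRE1_KO_ITD and 11.1, 10.6 and 7.82 FPKM in IRE1_KO libraries (limma adjusted p = 0.000751). The exonuclease Isg20, the synthetase Oas1a and the chaperone Rtp4 fell, with log2 fold changes of -1.38, -2.03 and -1.85. The number of interferon genes that fell was 1 or 2 whichever library was left out, and 18 with only the 6 libraries compared in the fit. Besides Ifitm1, Ifitm3 passed in its family (0.63 ± 0.17, limma adjusted p = 0.0359), at 438.3 to 606.5 FPKM in IRE1_KO_ITD and 304.7 to 380.7 FPKM in IRE1_KO libraries; Ifitm2 and Ifitm6 did not pass.

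Few genes controlled by IRE1 and the other ER sensors passed, and their number depended on the scaling. Of 78 tested genes of the XBP1 secretory pathway and ER-associated degradation, 3 rose and 2 fell (median 0.06), against 8.89% higher and 4.49% lower over all genes. With a median-ratio size factor 2 rose and 8 fell, against 729 lower of 10818 genes in that setting. The 3 higher calls became 0 without IRE1_KO_ITD replicate 1 or 2 or IRE1_KO replicate 1 or 3, and 1 without IRE1_KO replicate 2. Kdelr2, which returns escaped ER proteins, was at 37.1, 40.1 and 42.4 FPKM in IRE1_KO_ITD and 88.3, 73.6 and 67.8 FPKM in IRE1_KO libraries (-0.92 ± 0.11, limma adjusted p = 0.00078). Pdia5, Serp1 and Sar1a rose by 0.69, 0.33 and 0.30, and Wipi1, of autophagy, had a log2 fold change of -0.96. None of 20 ER chaperones and none of 10 sensors and transcription factors of the unfolded protein response passed as reported. With a median-ratio size factor 3 of the 20 chaperones fell, 1 of them fell without IRE1_KO_ITD replicate 3, and without IRE1_KO replicate 2 Ern1 passed (log2 fold change 0.63, limma adjusted p = 0.0361). Xbp1 itself was at 125.3, 182.1 and 179.5 FPKM in IRE1_KO_ITD and 147.6, 113.8 and 127.8 FPKM in IRE1_KO libraries, which overlap (0.31 ± 0.18, limma adjusted p = 0.279). Of 33 ATF4 targets 2 rose (Nupr1 and Sesn2) and 1 fell (Nars), and of 12 reported IRE1-dependent decay substrates 1 rose (Pdgfrb) and 2 fell (St3gal5 and Itgb2). The ATF4 targets that rose became 0 without a filter and without IRE1_KO_ITD replicate 1 or 2 or IRE1_KO replicate 1 or 3, and 1 without IRE1_KO_ITD replicate 3 or IRE1_KO replicate 2; Nars lost its call under 11 of 15 alternatives. The decay substrates that fell became 0 without IRE1_KO_ITD replicate 2 or IRE1_KO replicate 3, 1 without IRE1_KO_ITD replicate 1 or 3 or IRE1_KO replicate 1, and 4 in the fits of 6 or 24 libraries, and Pdgfrb lost its call without IRE1_KO replicate 1 or 3.

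Many genes of the cholesterol list rose. Of 31 tested genes listed for cholesterol synthesis and uptake, 14 rose and none fell (median 0.49). The list also holds fatty acid desaturases, so the count is not of sterol genes alone. Idi1 and Msmo1, enzymes of the pathway, were at 31.2 to 39.2 and 23 to 31.7 FPKM in IRE1_KO_ITD and at 15.8 to 22 and 14.0 to 16.9 FPKM in IRE1_KO libraries (0.87 ± 0.13 and 0.79 ± 0.13, limma adjusted p = 0.00228 and 0.00404). The fatty acid desaturases Scd2 and Fads1 rose by 1.03 ± 0.19 and 1.13 ± 0.23 (limma adjusted p = 0.00563 and 0.00965). The 14 that rose became 9 without IRE1_KO_ITD replicate 1 or 2, and 7 without IRE1_KO_ITD replicate 3 or IRE1_KO replicate 1 or 3.

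Growth and division genes held calls in both directions. Of 67 tested cytosolic ribosomal protein genes, 16 rose and none fell (median 0.34), but only 3 passed with a median-ratio size factor, 2 to 6 without any 1 of the libraries other than IRE1_KO_ITD replicate 3, and 24 without that library. Of 46 ribosome biogenesis genes 3 rose (1 without IRE1_KO_ITD replicate 1 or 2 or IRE1_KO replicate 1 or 3), among them Npm1 (0.56 ± 0.11, limma adjusted p = 0.00801). Over all genes tested 8.89% rose and 4.49% fell, so 3 of 46 is no excess of higher calls. Of 50 DNA replication and S phase genes, 7 fell and 1 rose, with 2 to 4 lower without any 1 library other than IRE1_KO_ITD replicate 3: Rrm2 and Tk1, which supply nucleotides, had log2 fold changes of -0.56 and -0.47, while the polymerase subunit Pola1 was at 23.9, 24.7 and 23.5 FPKM in IRE1_KO_ITD and 14.7, 14.8 and 11.9 FPKM in IRE1_KO libraries (0.77 ± 0.10, limma adjusted p = 0.00078). Of 40 mitosis genes 6 fell (3 without IRE1_KO_ITD replicate 1 or IRE1_KO replicate 1), including the kinase Aurka (-0.62 ± 0.12, limma adjusted p = 0.00776). With a median-ratio size factor 11 DNA replication and 10 mitosis genes fell. None of 68 oxidative phosphorylation genes passed (median 0.08).

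MHC class II chains were high in ITD GMP and not in IRE1_KO_ITD GMP, although the test of that difference did not pass over all genes. These genes encode the chains that present extracellular peptides on antigen-presenting cells, and their transcription depends on the coactivator Ciita, which acts through factors bound to conserved promoter boxes. The promoters of H2-Aa and H2-Eb1, which encode an α and a β chain, are shown because the 2 genes had the same pattern across the 4 genotypes. Both lie on chromosome 17 and both hold the Y box, whose letters are CTGATTGG. The bases given are the 250 upstream of the RefSeq start on mm10 (GRCm38.p6), in the direction of transcription, with the Y box in capitals: H2-Aa at chr17:34287824-34288073 on the minus strand and H2-Eb1 at chr17:34305617-34305866 on the plus strand.
H2-Aa: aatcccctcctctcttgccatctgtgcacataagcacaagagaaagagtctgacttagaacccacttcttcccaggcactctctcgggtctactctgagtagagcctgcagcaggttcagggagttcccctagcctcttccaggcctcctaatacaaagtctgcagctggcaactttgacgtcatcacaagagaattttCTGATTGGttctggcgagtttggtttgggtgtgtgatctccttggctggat
H2-Eb1: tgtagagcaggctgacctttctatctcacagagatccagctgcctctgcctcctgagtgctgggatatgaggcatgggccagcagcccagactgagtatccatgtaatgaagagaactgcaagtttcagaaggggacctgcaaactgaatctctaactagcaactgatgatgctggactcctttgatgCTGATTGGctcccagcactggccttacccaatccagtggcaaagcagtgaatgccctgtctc

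The Y box begins 51 bases before the start of H2-Aa and 62 bases before that of H2-Eb1. On either strand it occurred in 1258 of 32851 RefSeq promoter windows of this length (3.83%). Of the other class II genes looked up, H2-Oa and H2-Eb2 held it, and H2-DMa, H2-DMb1, H2-DMb2 and H2-Ob did not. H2-Ab1 and Cd74 shared the pattern of H2-Aa and H2-Eb1 across the genotypes. No promoter was found under the symbol of H2-Ab1, and that of Cd74 is not shown. A match is a description of these letters and not a measured binding site.

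Without IRE1, the class II chains overlapped between the groups. H2-Ab1 was at 40.2, 90.6 and 26.9 FPKM in IRE1_KO_ITD and 15.7, 25.5 and 45.5 FPKM in IRE1_KO libraries, a log2 fold change of 0.79 ± 0.45 that did not pass (limma adjusted p = 0.279). With Ern1 intact, H2-Ab1 was at 389.8, 405.3 and 635.3 FPKM in ITD libraries and 13.4, 22.6 and 19.0 FPKM in WT libraries, and its log2 fold change of 4.62 passed (limma adjusted p = 0.00031). All 3 ITD libraries lay above every other library of the 12. The log2 fold changes without IRE1 were 0.41 for H2-Aa, 0.58 for H2-Eb1 and 0.14 for the invariant chain Cd74, against 4.42, 4.56 and 4.29 with Ern1 intact.

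The test of the difference between the 2 effects gave -3.83 ± 0.63 for H2-Ab1, -4.01 ± 0.79 for H2-Aa, -3.98 ± 0.73 for H2-Eb1 and -4.15 ± 0.83 for Cd74 on the log2 scale. None passed adjustment over all genes: the limma adjusted p were 0.178, 0.21, 0.21 and 0.211, at unadjusted p of 8.94e-05, 0.000386, 0.000208 and 0.000429. H2-Ab1 was among the genes of smallest p for this difference, so its unadjusted p was selected as small. Over 19 alternative settings and left-out libraries the difference for H2-Ab1 stayed between -4.31 and -3.19, with adjusted p from 0.0325 (without ITD replicate 1) to 0.82 (with sex as a covariate). Sex moved with the groups here, as all ITD libraries were female, and its part in the difference was not tested apart from that covariate.

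Ciita did not pass the filter in the 6 libraries and was not tested, with 0.279, 0.201 and 0.131 FPKM in IRE1_KO_ITD and 0.0776, 0.761 and 0.195 FPKM in IRE1_KO libraries. In ITD libraries it was at 2.98, 1.96 and 3.87 FPKM, and in WT libraries at 0.0414, 0.270 and 0.0650 FPKM. Of 9 tested class II genes, 1 rose without IRE1 (median 0.24) and 7 rose with Ern1 intact (median 1.26). The gene that rose in both was H2-DMa, a chaperone of peptide loading, at 84.1, 88.8 and 64.1 FPKM in IRE1_KO_ITD and 32.9, 42.3 and 40.3 FPKM in IRE1_KO libraries (1.01 ± 0.14, limma adjusted p = 0.00139). The dendritic cell integrin Itgax was at 0.394, 0.564 and 0.211 FPKM in IRE1_KO_ITD and 0.223, 0.319 and 0.444 FPKM in IRE1_KO libraries, which overlap. It was at 0.400, 0.559 and 1.30 FPKM in ITD and 0.104, 0.231 and 0.146 FPKM in WT libraries, which do not. It did not pass the filter and was not tested, and its part in the class II levels was not tested.

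**Figure D4:**
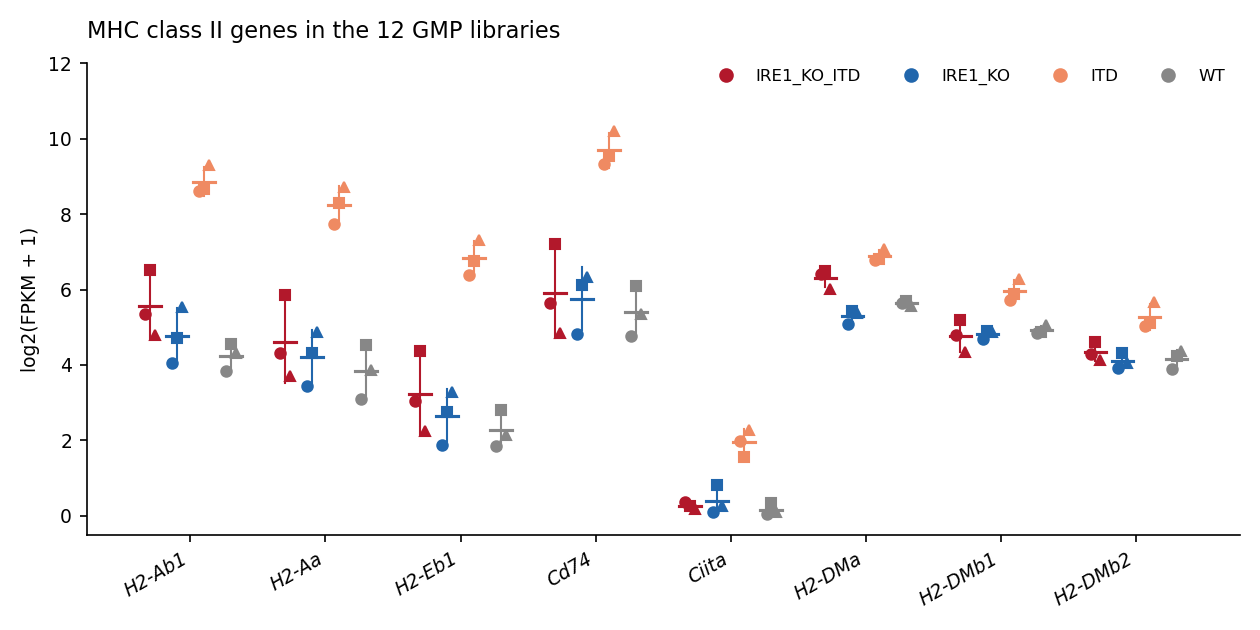
Levels as log2(FPKM + 1) of MHC class II genes and Ciita in GMP of the 4 genotypes, from left to right IRE1_KO_ITD, IRE1_KO, ITD and WT; circle, square and triangle are replicates 1, 2 and 3, the bar is the mean and the line the SD (n = 3 each). For H2-Ab1, H2-Aa, H2-Eb1, Cd74 and Ciita the ITD libraries lie above every library of the other 3 groups, and the IRE1_KO_ITD and IRE1_KO libraries overlap.

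Whether the whole effect of Flt3-ITD depended on Ern1 was tested as a difference of differences over the 12 GMP libraries. No gene passed in limma at an adjusted p under 0.05 (0 of 10818, 0.0%), and 1394 genes (12.9%) had an unadjusted p under 0.05. The simulated data had a normally distributed spread and 200 changed genes, all with a mean log2(FPKM + 1) above 2. On them this test recovered 60.6% of the genes simulated with a change of 1 log2 unit and 90.6% at 2 units. Small dependences could thus go undetected. In the real data an estimated difference of -4.15 (Cd74) did not pass either, so the recovered shares may not hold for every gene. The count was 93 without ITD replicate 1, a library in which eosinophil and neutrophil genes were much lower than in the other ITD libraries (Prg2 at 2.95 FPKM against 335.9 and 250.6 FPKM).

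The effects in both backgrounds were alike in direction for most genes called. The comparisons share no library, although all 12 GMP libraries share 1 estimate of the spread. Of the 962 genes that rose without IRE1, 861 (89.5%) had the same sign with Ern1 intact and 376 (39.1%) also passed there, where 10.6% of all genes passed, 7.39% higher and 3.22% lower. Of the 486 that fell, 442 (90.9%) had the same sign and 168 (34.6%) also passed, while 2 passed in the opposite direction. Over all genes tested 66.0% had the same sign, and the correlation across genes was 0.525, with genes not being independent replicates. The median log2 fold change of the genes that rose was 0.71 without IRE1 and 0.44 with Ern1 intact, and of those that fell -0.77 and -0.42; as the genes were selected on the comparison without IRE1, these sizes are a description only.

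Socs2 changed by 5.44 without IRE1 and 5.19 with Ern1 intact, a difference of 0.25 ± 0.47 (limma adjusted p = 0.826). Ifitm1 changed by 4.50 and 3.01, a difference of 1.49 ± 0.40 at an unadjusted p of 0.00357 (limma adjusted p = 0.265). Thy1 changed by 2.45 without IRE1 and 0.77 with Ern1 intact (difference 1.67 ± 0.38, limma adjusted p = 0.264), and in ITD libraries it was at 2.30, 0.490 and 0.365 FPKM. Gpc1, a glypican of the cell surface, was at 8.42, 6.87 and 9.45 FPKM in IRE1_KO_ITD and 28.4, 27.4 and 47.0 FPKM in IRE1_KO libraries (-1.90), against 0.17 with Ern1 intact (difference -2.06 ± 0.34, limma adjusted p = 0.178). Ccnd3 fell by 0.97 without IRE1 and had a log2 fold change of -0.06 with Ern1 intact, with 102.2, 138.1 and 142.7 FPKM in ITD and 137.3, 134.2 and 124.5 FPKM in WT libraries (difference -0.90 ± 0.18, limma adjusted p = 0.21). None of these differences passed.

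**Figure D5:**
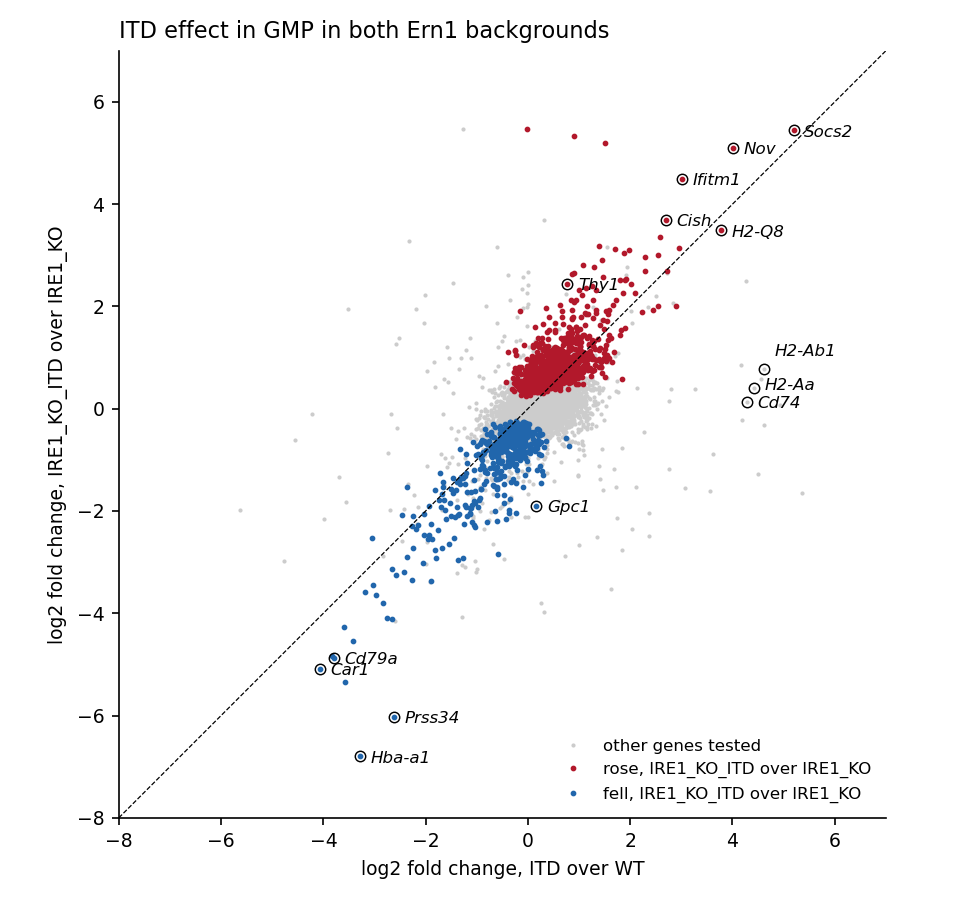
Log2 fold change in GMP of IRE1_KO_ITD over IRE1_KO (y axis) against that of ITD over WT (x axis), 1 point per gene tested, with genes called in IRE1_KO_ITD against IRE1_KO in red (rose) and blue (fell); the dashed line marks equal effects. Socs2, Nov, Ifitm1, Car1 and Cd79a lie in the same quadrant on both axes, while H2-Ab1, H2-Aa and Cd74 lie far right and near 0 on the y axis.

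The same genotype comparison in LSK cells was set against that in GMP. In LSK, 3200 genes (29.6%) passed, 1277 higher (11.8%) and 1923 lower (17.8%) in IRE1_KO_ITD. The difference of the effects, GMP minus LSK, passed for 1596 genes (14.8%), with 1198 positive (11.1%) and 398 negative (3.68%). This split also depended on the scaling, at 741 and 911 with quantile normalization and 875 and 649 with a median-ratio size factor, and the median difference over all genes was 0.13 as reported and -0.03 with quantile normalization. A 1ng tag in the headers marks the 3 IRE1_KO LSK libraries alone, so population and that tag cannot be told apart in this test. Whether GMP and LSK libraries came from the same mice is not stated in the labels, and the test treated all 24 as independent. By Xist and Y-linked genes, IRE1_KO_ITD LSK replicates 1 and 2 were male and replicate 3 female, unlike the GMP replicates of that genotype. Flt3 had log2 fold changes of opposite sign in the populations: in LSK it was at 67.6, 68.2 and 76.1 FPKM in IRE1_KO_ITD and 189.0, 218.8 and 190.6 FPKM in IRE1_KO libraries, a log2 fold change of -1.48 against 1.45 in GMP (difference 2.93 ± 0.48, limma adjusted p = 0.000795). Xbp1 rose in LSK, with a log2 fold change of 1.57, against 0.31 in GMP, which did not pass (difference -1.27 ± 0.27, limma adjusted p = 0.00475). Satb1, a chromatin organiser of lymphoid priming, was at 1.44 to 1.91 FPKM in IRE1_KO_ITD and 23.9 to 29.0 FPKM in IRE1_KO LSK, but at 2.24 to 3.44 and 1.87 to 3.14 FPKM in the GMP of those genotypes (difference 3.39 ± 0.33, limma adjusted p = 7.63e-06).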

How the data were processed

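RNA sequencing of sorted mouse GMP and LSK cells was analysed, 24 libraries of 4 genotypes with 3 each. Per the submitters' processing notes, STAR, Cufflinks and the mm10 build were used; versions and the order of steps were not stated. Each deposited value is an FPKM that the authors computed for a gene symbol in a library, already scaled by depth and length. The protocol and series texts name different library kits, and which was used was not settled. FPKM is not a count, and reads could not be recovered: low values stood in whole-number ratios for 44.6% to 51.1% of genes in GMP libraries.

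Genes were tested that reached 1 FPKM in 3 or more of the 6 libraries. The fit of log2(FPKM + 1) used limma 3.58.1 under R 4.3.3 (moderated test, mean-variance trend), with the 12 GMP libraries in 1 fit and all 24 for GMP minus LSK. P was adjusted by Benjamini-Hochberg over all 10818 genes, with a threshold of 0.05. On simulated data the main comparison recovered 27.8%, 81.5% and 94.2% of genes changed by 0.5, 1 and 2 log2 units, with 7 to 12 unchanged genes called. In each of 5 runs the spread was drawn as normal and 200 genes were changed. The changed genes had a mean log2(FPKM + 1) above 2, so genes at low level are not covered. Tables and figures used Python 3.11.15, numpy 2.4.6, pandas 2.3.3 and matplotlib 3.10.9. Positions and promoters are from RefSeq on GRCm38.p6.

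The comparison and 31 gene lists (963 of 980 entries matched a symbol) were chosen with earlier results of these data known. Named genes were Ern1, Xbp1, Flt3, Kit, Socs2 and Cish, the 10 highest and 10 lowest log2 fold changes (adjusted p under 0.05, change of at least 1, no overlap, a higher group averaging 5 FPKM or more, short RNA loci left out), the 4 or fewer called members of smallest p in each list with at least 3 called, up to 6 called genes per difference of effects (the 5 of smallest p where fewer than 5 passed), and members of the STAT5, receptor, IFITM and MHC class II lists. No gene passed for the difference by Ern1 genotype. Amica1, Tmem218, Gpc1, Cyp27a1 and H2-Ab1 were therefore named only as the 5 of smallest p. Pdia5, Oas1a, Rtp4, Camp, Mcpt8, Itgax, Tap1, Psmb8, Psmb9, Nlrc5, Hlf, Cd34, Cst7, Nfe2, Mpo, Cd3e, Cd3g, Pax5, Ly6c2, F13a1 and Ccr2 fall outside that rule and were named after their values were seen; a few genes are not reported here. Alternatives were another pseudocount (0.1), no filter, a filter over 12 libraries, a median-ratio size factor, quantile normalization, sex as a covariate, the replicate number as a block, fits of 6 or 24 libraries, and leaving out each library.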

Additional observations from a re-analysis of the deposited data

Results flagged for a closer look

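The effect of Flt3-ITD without IRE1 differed between GMP and LSK for 1596 genes (test of the difference, limma adjusted p under 0.05; 14.8% of genes tested). The 1ng tag of the 3 IRE1_KO LSK libraries cannot be told apart from the population in these differences. Among named genes, all GMP minus LSK on the log2 scale, the difference was positive for Satb1 (3.39), Igfbp7 (3.23), Flt3 (2.93), Cp (2.80), Samsn1 (2.20), Gpr171 (1.90), Fcgrt (1.85), Ypel3 (1.82), Itsn1 (1.66), H2-DMa (1.52), Ifitm1 (1.49), H2-Ob (1.40) and Kit (0.70). It was negative for Prss34 (-4.43), Epx (-3.50) and Xbp1 (-1.27). Cp, for example, was at 7.49, 14.9 and 6.11 FPKM in IRE1_KO_ITD GMP and at 0.0955, 0.290 and 0.794 FPKM in IRE1_KO_ITD LSK, while it stayed at or under 0.159 FPKM in the IRE1_KO libraries of both populations. Prss34 was at 0, 0.172 and 0 FPKM in IRE1_KO_ITD LSK and at 9.82, 2.0 and 0 FPKM in IRE1_KO LSK.

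Tmem218 and Cyp27a1 had effects of opposite direction by Ern1 genotype in GMP, without overlap of libraries in either comparison. Tmem218 was at 10.9, 9.57 and 12.1 FPKM in IRE1_KO_ITD and 6.30, 6.21 and 6.18 FPKM in IRE1_KO libraries, but at 9.73, 8.14 and 9.51 FPKM in ITD and 10.7, 11.4 and 11.2 FPKM in WT libraries (difference 0.97). Cyp27a1, a sterol hydroxylase, was at 2.76, 2.68 and 1.36 FPKM in IRE1_KO_ITD and 3.93, 4.81 and 4.18 FPKM in IRE1_KO libraries, but at 9.33, 10.1 and 12.4 FPKM in ITD and 5.87, 5.59 and 5.48 FPKM in WT libraries (difference -1.53). Neither difference passed adjustment over all genes (limma adjusted p = 0.178 for both). Both genes were named because their unadjusted p was among the smallest for this difference.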

How the results depend on the processing

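The 1448 calls of IRE1_KO_ITD against IRE1_KO lay between 728 and 1184 when 1 library was left out and between 1083 and 1934 over the other alternatives: 1404 with a pseudocount of 0.1, 1169 without a filter, 1114 with sex as a covariate, 1169 with the 6 libraries alone and 1934 with all 24. Same-numbered libraries of the groups did not deviate together (correlations -0.005 to 0.06) and were not treated as pairs; with the replicate block the count was 1083. The 0 calls for the difference by Ern1 genotype became 3 without a filter and lay between 0 and 93 with 1 library left out. The GMP minus LSK count lay between 1116 and 1624 with 1 library left out and between 1524 and 1848 otherwise. Of 109 named genes called, 73 passed under every alternative and 36 lost the call under at least 1, among them Prg2, Retnlg, Hba-a2, Cebpe, Bcl2 and Ifitm3, with adjusted p between 0.0524 and 0.139. Elane reversed to 0.45 under quantile normalization; the cause was not tested. With 3 libraries in each group, changes under 1 log2 unit are often missed, and depth could not be read from the files beyond relative values.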

Other observations

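Outside the MHC class II list, Amica1 and Id2 were higher in ITD than in WT GMP but not in IRE1_KO_ITD than in IRE1_KO GMP. All ITD libraries were female, as stated above for the class II genes. For Id2 the ITD and IRE1_KO libraries overlapped. Amica1, which encodes the junctional adhesion molecule JAML of myeloid cells, was at 2.17, 2.67 and 1.99 FPKM in IRE1_KO_ITD and 2.97, 1.89 and 1.72 FPKM in IRE1_KO libraries, which overlap, and at 6.80, 7.50 and 9.06 FPKM in ITD and 2.0, 2.13 and 1.91 FPKM in WT libraries, which do not. The difference of its effects was -1.48 ± 0.23 on the log2 scale, with the smallest unadjusted p of the named genes (4.28e-05), and did not pass over all genes (limma adjusted p = 0.178). Id2, an inhibitor of E proteins, was at 25.8, 30.6 and 13.9 FPKM in IRE1_KO_ITD and 53.6, 22.1 and 64.5 FPKM in IRE1_KO libraries, and at 60.0, 98.0 and 110.1 FPKM in ITD and 48.6, 38.1 and 34.3 FPKM in WT libraries (difference -2.0 ± 0.56, limma adjusted p = 0.28).

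Of 67 tested ribosomal protein genes, 16 rose in IRE1_KO_ITD against IRE1_KO (3 with a median-ratio size factor, and 2 to 6 without any 1 library other than IRE1_KO_ITD replicate 3) and 0 in ITD against WT, where the median was -0.04. The difference of effects had an unadjusted p under 0.05 for 35 of the 67 genes, against 12.9% of all genes, and passed over all genes for none. These genes are not independent replicates. The 35 were counted only in the fit as reported and not under other scalings, so this number is a description only. Rplp1 was at 2241, 2061 and 1934 FPKM in IRE1_KO_ITD and 1483, 1490 and 1467 FPKM in IRE1_KO libraries, and at 1735, 1794 and 1621 FPKM in ITD and 1887, 1653 and 1641 FPKM in WT libraries.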
